A study of Homo sapiens and Mus musculus with 12 samples.

Results

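The bone morphogenetic protein (BMP) ligand genes BMP2, BMP4, BMP5, BMP6 and BMP7 and the pathway's target genes MSX1, MSX2, ID1, ID3 and ID4 are described here in cortical organoids with and without NOTCH2NL. The 10 human genes were found by symbol among 60675 gene identifiers, and their 10 mouse orthologs were found by gene description among 47729.

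The data are read counts per gene from 12 RNA-seq libraries of cortical organoids, aggregates of embryonic stem cells that differentiate toward embryonic forebrain. NOTCH2NL is a group of human genes derived by partial copying from NOTCH2, a Notch receptor gene. The human comparison addressed what follows from loss of NOTCH2NL, and the mouse comparison what follows from its expression in a species without it. Each of the 4 groups had 3 libraries.

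Human KO organoids were grown from H9, an established embryonic stem cell line, in which NOTCH2NL was knocked out with CRISPR/Cas9; their line code was H9_KO_E5del42. Human WT organoids were grown from H9 control cells with the code H9_WT_E2del19. Each human library held a pool of 5 to 10 organoids taken at day 28, in week 4. Mouse N2NL organoids came from a stable line of 46C mouse embryonic stem cells that overexpressed the NOTCH2NL-Sh_T197I cDNA, and mouse EV organoids from a stable 46C line with the empty vector. Each mouse library held a pool of 16 organoids taken at day 6. There was 1 line code per group, so genotype or vector and cell line cannot be told apart. The labels name no separate cultures behind the pools, so p-values measure the spread between pools, which may be technical.

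All human organoids were differentiated with 1 µM dorsomorphin, an inhibitor of BMP type I receptors, together with SB431542, 3 µM IWR-1-endo and 1 µM cyclopamine, inhibitors of TGF-beta, Wnt and Hedgehog signalling. The medium was changed at day 18 for all human organoids. Cyclopamine was left out from day 24, and the labels give no such day for the other inhibitors. Members of the BMP pathway were thus measured in KO and WT tissue that had both been exposed to a BMP receptor inhibitor.

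BMP ligands bind pairs of type I and type II serine/threonine kinase receptors, which phosphorylate SMAD1, SMAD5 and SMAD9; these enter the nucleus with SMAD4. ID genes and MSX genes are among the targets activated there. In the developing forebrain BMP signalling is known for its part at the dorsal midline, where the cortical hem and the choroid plexus form, and ID proteins are known for holding back neuronal differentiation by binding bHLH transcription factors.

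To show the letters that precede some of the genes whose levels are compared below, sequence before the start of transcription is given as RefSeq has it for GRCh38.p14. A window of 250 bases before to 50 bases after the start was matched for 8 of the 10 genes, in 10 windows. BMP2 and BMP7 were not matched. Positions count from the RefSeq start, which can differ from the gene bounds given with the levels below. The printed BMP6 letters end at 7726098, whereas the gene is given below from 7726797. The ID3 letters lie inside the gene as given below, which ends at 23559794. The windows were searched on both strands for 4 short motifs. The core-promoter letters were TATAA, which reads as TTATA on the opposite strand, and CCAAT, which reads as ATTGG on the opposite strand. The letters known to be bound by SMAD proteins were GGCGCC, which is its own reverse complement, as well as CAGAC, which reads as GTCTG on the opposite strand. The letters TTATAA hold TATAA on both strands, which gives neighbouring positions in ID1 and MSX2. MSX1 and BMP6, both called higher in KO below, and MSX2 and the 3 ID genes are printed 5′ to 3′ over the 250 bases before the start, with matches to TATAA and CCAAT on either strand in capitals.
MSX1, chr4:4859415-4859664, plus strand: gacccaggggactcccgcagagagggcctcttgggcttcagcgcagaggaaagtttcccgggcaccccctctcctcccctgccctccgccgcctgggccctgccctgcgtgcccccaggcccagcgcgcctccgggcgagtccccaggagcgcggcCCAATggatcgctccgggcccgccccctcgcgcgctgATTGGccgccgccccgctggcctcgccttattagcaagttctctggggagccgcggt
MSX2, chr5:174724332-174724581, plus strand: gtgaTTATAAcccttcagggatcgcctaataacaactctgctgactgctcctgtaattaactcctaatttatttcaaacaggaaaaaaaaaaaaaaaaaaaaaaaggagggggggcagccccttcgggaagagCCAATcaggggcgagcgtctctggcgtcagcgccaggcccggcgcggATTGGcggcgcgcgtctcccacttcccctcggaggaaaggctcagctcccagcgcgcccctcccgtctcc
BMP6, chr6:7725849-7726098, plus strand: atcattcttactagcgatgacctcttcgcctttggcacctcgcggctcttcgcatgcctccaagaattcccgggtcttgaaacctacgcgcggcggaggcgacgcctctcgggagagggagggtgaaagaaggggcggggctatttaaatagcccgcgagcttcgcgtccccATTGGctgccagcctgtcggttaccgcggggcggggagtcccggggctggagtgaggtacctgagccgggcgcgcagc
ID1, chr20:31605039-31605288, plus strand: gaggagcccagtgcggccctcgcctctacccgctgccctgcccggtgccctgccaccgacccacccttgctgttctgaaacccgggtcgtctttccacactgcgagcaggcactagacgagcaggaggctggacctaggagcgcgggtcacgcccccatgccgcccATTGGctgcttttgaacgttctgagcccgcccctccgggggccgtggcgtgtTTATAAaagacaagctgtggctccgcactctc
ID3, chr1:23559502-23559751, minus strand: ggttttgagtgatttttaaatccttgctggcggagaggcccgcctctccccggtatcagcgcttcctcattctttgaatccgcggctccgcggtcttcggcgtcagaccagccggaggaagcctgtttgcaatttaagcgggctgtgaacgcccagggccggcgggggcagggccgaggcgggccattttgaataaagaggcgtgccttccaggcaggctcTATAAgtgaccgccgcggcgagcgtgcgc
ID4, chr6:19837120-19837369, plus strand: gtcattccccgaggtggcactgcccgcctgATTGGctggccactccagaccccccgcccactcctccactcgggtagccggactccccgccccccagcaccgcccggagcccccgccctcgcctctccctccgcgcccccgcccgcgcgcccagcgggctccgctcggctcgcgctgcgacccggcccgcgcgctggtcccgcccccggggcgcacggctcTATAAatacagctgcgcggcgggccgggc

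The 3 ID genes each held TATAA close to the start, with the match beginning at position -31 in ID1 (and at -32 as TTATA, its opposite-strand reading), at -29 in ID3 and at -29 in ID4. MSX1 held CCAAT letters at -94 and -57 and no TATAA, and BMP6 held CCAAT letters at -78 and no TATAA. MSX2 held CCAAT letters at -117 and -70, with TATAA at -246 and -245. Of the 10 windows of these genes, 6 held TATAA and 5 held CCAAT, whereas 20.4% and 34.6% of all 35116 windows of that length did. CAGAC was found in 5 of the 10 windows, which were the 3 of BMP4 and those of ID3 and ID4, and in 45.3% of all windows. GGCGCC was found in 1 window, of BMP4, and in 19.2% of all windows. A match is a description of letters in these windows, and not a binding site.

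Libraries held 15381409 to 16382938 counts in human and 16781742 to 20960391 in mouse. The targeted gene went with the labels: NOTCH2NL had 0 counts in all 3 KO libraries, against 4, 5 and 3 counts in WT, too few to test, and in the authors' deposited table it stood at normalized values of 801, 709 and 740 in N2NL libraries and 0 in all 3 EV libraries. Levels below are CPM, read counts scaled to the size of the library with TMM factors. Genes are called at a Benjamini-Hochberg adjusted p under 0.05 in edgeR's quasi-likelihood test over all tested genes, which was met by 932 of 16956 human genes (391 higher and 541 lower in KO; 454 and 455 when scaled by library size alone) and by 2 of 16682 mouse genes. Forebrain and neural markers were present in the human libraries: PAX6 averaged 237 ± 32.9 CPM in KO and 177 ± 48.6 CPM in WT, and DCX, a gene of young neurons, 1069 ± 219 CPM in KO and 1013 ± 129 CPM in WT (SD, n = 3 each). WT 1 stood apart from the other human libraries in the results below, which are therefore also given without it.

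In human organoids, 3 of the 10 members were called higher in KO than in WT, the ligands BMP6 and BMP7 and the target MSX1, and none was called lower. The background was 2.31% of tested genes called higher in KO, 3.19% called lower and 5.5% called in either direction. All 3 KO libraries lay above all 3 WT libraries for 8 of the 10 members, the exceptions being BMP5 and ID1, whereas 14.1% of tested genes had that order and 28.8% had groups that did not overlap in either order. The median log2 fold change of the 10 members was 1.01, and that of all tested genes was -0.00. An unadjusted p under 0.05 was reached by 7 of the 10 and by 3872 of all 16956 tested genes. That share over all tested genes is the background for such counts in the human lists below. In bulk RNA from pooled organoids, more cells that express a gene and more RNA per cell cannot be told apart.

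**Figure D1:**
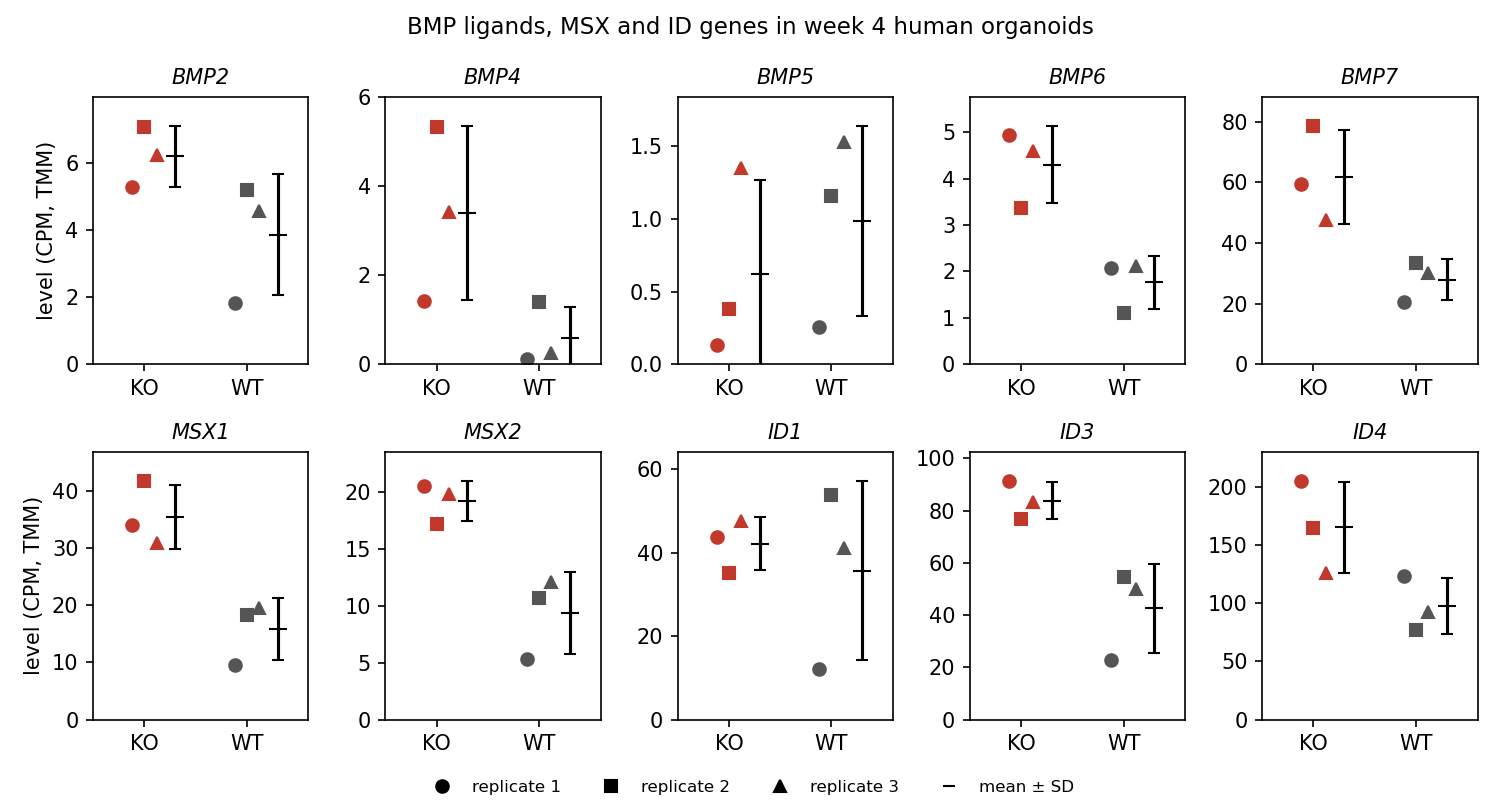
Levels in CPM of the 10 genes in human week 4 organoids, with 1 panel per gene and a linear axis from 0; symbols are the 3 KO and 3 WT libraries and bars are mean ± SD, cut at 0 where they would pass below it. KO libraries lie above all WT libraries in every panel except those of BMP5 and ID1, and WT 1 is the lowest library in 7 panels.

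Among the 5 BMP members, BMP7 was by far the most abundant and was called higher in KO. BMP7 (ENSG00000101144; GRCh38 chromosome 20, 57168748 to 57266629, minus strand) had 59.3, 78.5 and 47.5 CPM in KO 1 to 3, against 20.5, 33.3 and 30.1 CPM in WT 1 to 3. The lowest KO library thus stood above the highest WT library. The mean was 61.8 ± 15.6 CPM in KO and 28.0 ± 6.69 CPM in WT (SD, n = 3 each). On the log2 scale this was a fold change of 1.14 ± 0.23 (SE; edgeR adjusted p = 0.0377). BMP7 overlaps BMP7-AS1 on the opposite strand, and whether the counting used strand is not stated, so reads of the pair may be mixed.

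BMP6, which belongs with BMP5 and BMP7 to a subgroup of closely related ligands, was called higher at a much lower level. BMP6 (ENSG00000153162; chromosome 6, 7726797 to 7881422, plus strand) had 4.94, 3.37 and 4.59 CPM in KO 1 to 3, against 2.07, 1.10 and 2.12 CPM in WT 1 to 3. KO libraries lay above WT libraries without overlap, on 53 to 76 counts in KO and 18 to 32 in WT. The log2 fold change was 1.29 ± 0.31 (edgeR adjusted p = 0.0402).

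BMP4, a ligand that patterns the dorsal midline in mouse, had the largest log2 fold change of the 10 and, next to BMP5, the largest standard error of it. BMP4 (ENSG00000125378; chromosome 14, 53949736 to 53958761, minus strand) had 1.43, 5.34 and 3.43 CPM in KO 1 to 3, against 0.13, 1.40 and 0.265 CPM in WT 1 to 3. The highest WT library, WT 2, nearly reached the lowest KO library, KO 1. WT 1 and WT 3 held 2 and 4 counts. The log2 fold change of 2.46 ± 0.79 did not pass the test (edgeR adjusted p = 0.125); without WT 2 it was 4.07 and passed (adjusted p = 0.0303).

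BMP2, closely related to BMP4, and BMP5 were not called. BMP2 (ENSG00000125845; chromosome 20, 6767664 to 6780280, plus strand) had 5.27, 7.05 and 6.24 CPM in KO 1 to 3, against 1.81, 5.18 and 4.58 CPM in WT 1 to 3, a log2 fold change of 0.68 ± 0.34 (edgeR adjusted p = 0.270). The groups did not overlap, but WT 2 was close to KO 1. BMP5 (ENSG00000112175; chromosome 6, 55753645 to 55875564, minus strand) had 0.13, 0.381 and 1.35 CPM in KO, against 0.259, 1.16 and 1.53 CPM in WT. These were 2 to 22 counts in KO and 4 to 23 in WT, and the groups overlapped (log2 fold change -0.64 ± 0.81, edgeR adjusted p = 0.686). BMP5 was the single member with a negative fold change.

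The summed level of the 5 ligand genes per kilobase of exon was 14.7, 19.5 and 13.6 CPM per kilobase in KO 1 to 3, and 5.14, 8.73 and 8.07 CPM per kilobase in WT 1 to 3. BMP7 made up 64.4% to 74.6% of that sum in KO and 68.9% to 73.6% in WT, so its share overlapped between the groups. BMP4 made up 3.16% to 8.89% of the sum in KO and 0.819% to 5.21% in WT, which overlapped too. These shares were compared over 3 libraries a group with no test.

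The MSX genes encode homeodomain transcriptional repressors that follow BMP signalling in many embryonic tissues. MSX1 (ENSG00000163132; chromosome 4, 4859666 to 4863936, plus strand) had 33.9, 41.6 and 30.8 CPM in KO 1 to 3, against 9.59, 18.3 and 19.5 CPM in WT 1 to 3. Every KO library stood above every WT library, and the log2 fold change was 1.17 ± 0.26 (edgeR adjusted p = 0.0467). MSX2 (ENSG00000120149; chromosome 5, 174724533 to 174730893, plus strand) had 20.5, 17.2 and 19.9 CPM in KO 1 to 3, against 5.31, 10.7 and 12.1 CPM in WT 1 to 3. Its groups did not overlap either, and its log2 fold change of 1.03 ± 0.27 missed the threshold (edgeR adjusted p = 0.0600). That a call was made for MSX1 and not for MSX2 does not show that they differed, and the difference was not tested.

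The ID genes encode helix-loop-helix proteins without a DNA-binding region, and none of the 3 was called by edgeR, with 2 of 3 at an unadjusted p under 0.05 and 1 called by DESeq2, the count-based alternative test. ID3 (ENSG00000117318; chromosome 1, 23557918 to 23559794, minus strand) had 91.2, 76.9 and 83.2 CPM in KO 1 to 3, against 22.9, 54.5 and 50.2 CPM in WT 1 to 3. KO libraries were close to one another and all above WT, while WT 1 was far below the other WT libraries; the log2 fold change was 0.98 ± 0.32 (edgeR adjusted p = 0.154). Without WT 1 the fold was smaller, 0.68, and was called (adjusted p = 0.00296).

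ID4, known in mouse for its part in timing neuronal differentiation in the cortex, was the most abundant of the 3. ID4 (ENSG00000172201; chromosome 6, 19837386 to 19840684, plus strand, overlapped on the opposite strand by AL022068.1) had 205, 164 and 126 CPM in KO 1 to 3, against 124, 76.6 and 92.3 CPM in WT 1 to 3. KO 3 and WT 1 nearly met, and the log2 fold change of 0.76 ± 0.23 was not called (edgeR adjusted p = 0.125). For ID4, unlike ID3, WT 1 was the highest WT library.

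ID1 (ENSG00000125968; chromosome 20, 31605283 to 31606515, plus strand) had 43.7, 35.1 and 47.7 CPM in KO 1 to 3, against 12.1, 53.8 and 41.2 CPM in WT 1 to 3. The groups overlapped, with WT 2 above every KO library and WT 1 below them all. The log2 fold change was 0.24 ± 0.54 (edgeR adjusted p = 0.841), and it turned to -0.17 when WT 1 was left out. ID1 thus gave no direction that held over the libraries.

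**Figure D2:**
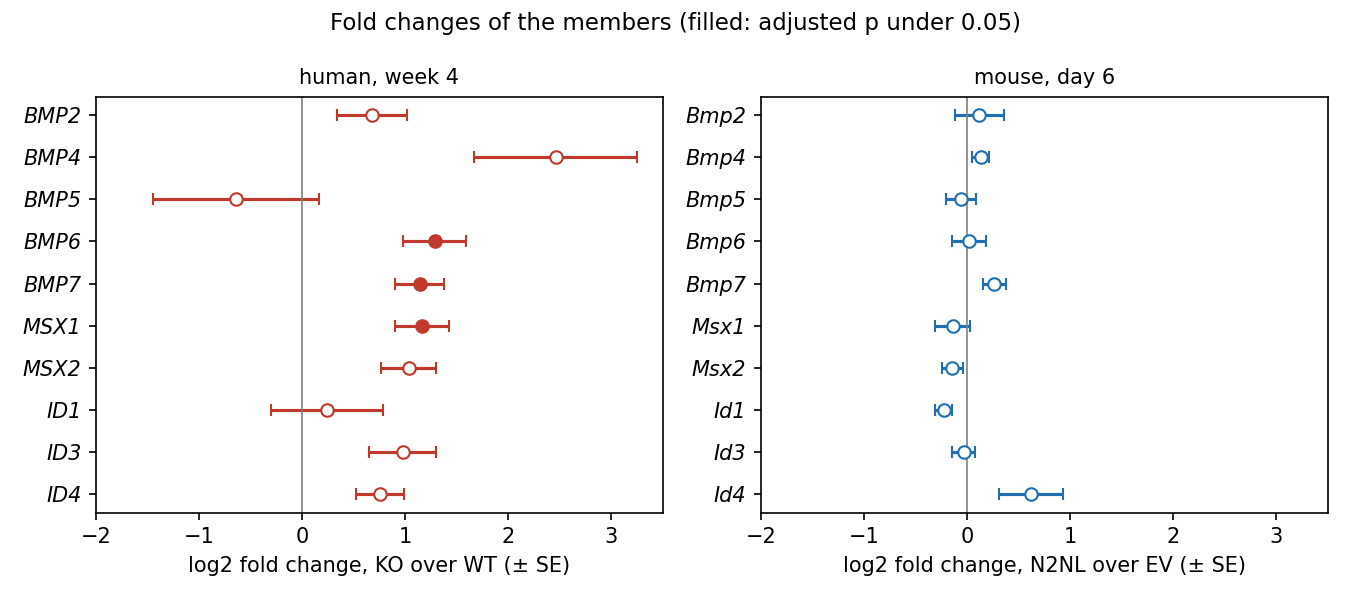
Log2 fold changes of the 10 genes with their standard errors, KO over WT in human week 4 organoids and N2NL over EV in mouse day 6 organoids, on the same axis; filled points have an edgeR adjusted p under 0.05. BMP6, BMP7 and MSX1 are filled in human, and no point is filled in mouse, where they run from -0.22 to 0.62.

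The authors' deposited table called 6 of the 10 genes higher in KO at an adjusted p under 0.05, beside 7.38% of its genes called in either direction. They were BMP4 (log2 fold change 0.85 in the authors' deposited table), BMP6 (0.83), BMP7 (0.98), MSX1 (0.96), MSX2 (0.82) and ID4 (0.67). DESeq2 run on the deposited counts called the same 6 genes, beside 8.31% of tested genes. Its folds were larger than the authors' for these 6, most so for BMP4, at 2.50 (DESeq2 adjusted p = 0.00794). The authors' adjusted p for BMP4 was 9.55E-03, so the folds differed where the adjusted p-values were close. The authors' folds are thus not on the scale of those given here, and the cause was not tested. ID3, at an adjusted p of 9.30E-02 in the authors' deposited table, ID1, BMP2 and BMP5 were called by neither.

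Placed on a scale per kilobase of exon, the level order in KO was ID4 (70.4 CPM per kilobase), ID3 (46.6), ID1 (34.2), MSX1 (16.7), BMP7 (11.4), MSX2 (8.46), BMP2 (1.72), BMP6 (1.55), BMP4 (1.10) and BMP5 (0.157). Libraries of neighbours in that order did not overlap, apart from BMP7 with MSX2, BMP2 with BMP6, and BMP6 with BMP4. In WT the order was ID4 (41.6 CPM per kilobase), ID1 (28.96), ID3 (23.7), MSX1 (7.45), BMP7 (5.16), MSX2 (4.13), BMP2 (1.07), BMP6 (0.635), BMP5 (0.248) and BMP4 (0.194). There the neighbours parted without overlap only between ID3 and MSX1, MSX2 and BMP2, and BMP6 and BMP5. BMP4 was the lowest of the 10 in WT and stood above BMP5 in KO, without overlap in KO and with overlap in WT.

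WT 1 stood apart for most of the 10 genes. Library numbers are those of the raw count columns; the authors' normalized human columns appear to exchange numbers 1 and 3 within each group, so WT 1 may be their replicate 3. WT 1 was the lowest of the 6 human libraries for BMP2, BMP4, BMP7, MSX1, MSX2, ID1 and ID3, 7 of the 10 genes. The share of all tested genes with WT 1 lowest was not computed, so this count cannot be read as particular to these genes. Without WT 1, edgeR called 5 of the 10 genes higher in KO (BMP6, BMP7, MSX1, MSX2 and ID3), beside 8.27% of tested genes called, and the folds of MSX1, MSX2 and BMP7 were smaller, at 0.91, 0.75 and 0.96. Without WT 2 it called BMP4 alone (2.88% of tested genes), without KO 3 BMP7 alone (3.03%), and without WT 3, KO 1 or KO 2 none (1.29%, 1.44% and 2.91% of tested genes), with 6, 6 and 7 of the 10 at an unadjusted p under 0.05; DESeq2 was not run on these subsets. Over the 6 fits with 1 library left out, BMP7 was called in 2, with adjusted p-values from 0.0236 to 0.128, and BMP6 and MSX1 were called in 1 each, from 0.0298 to 0.145 and from 0.00392 to 0.133. The fold changes of these 3 genes stayed positive in all 6 fits, between 0.91 and 1.44.

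**Figure D3:**
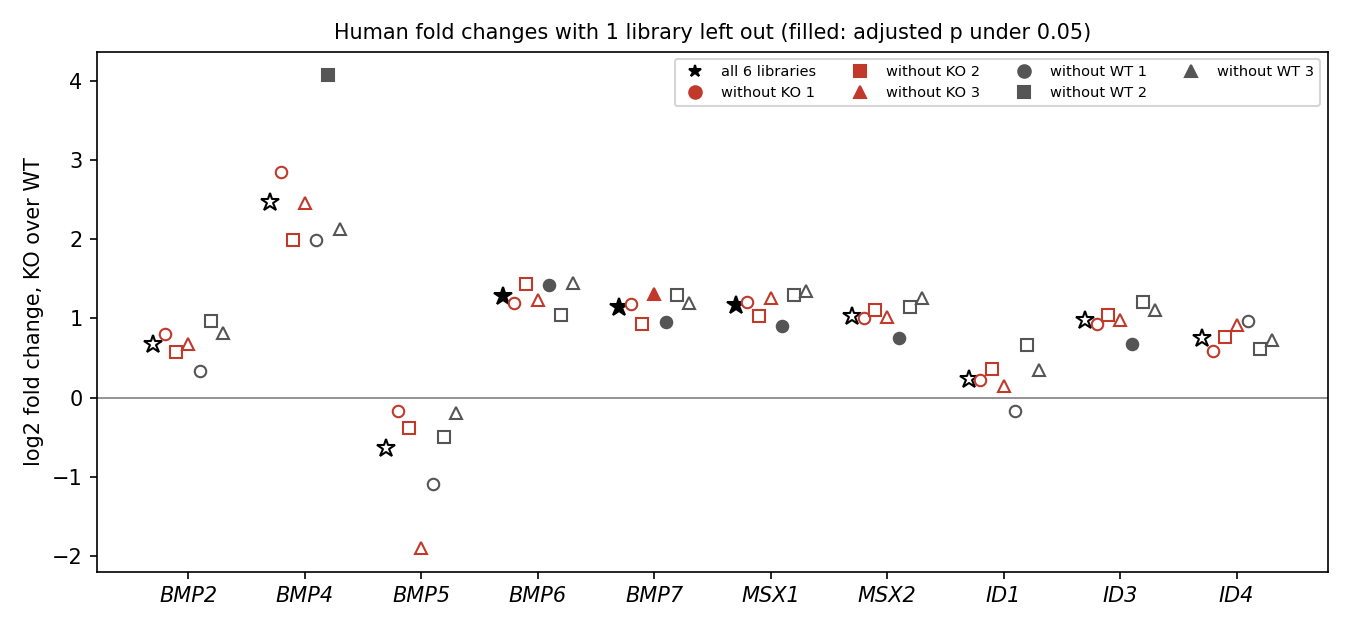
Human log2 fold changes, KO over WT, of the 10 genes with all 6 libraries (stars) and with each library left out in turn; filled symbols have an edgeR adjusted p under 0.05. The folds of BMP6, BMP7, MSX1, MSX2, ID3, ID4, BMP2 and BMP4 stay above 0 in every fit, while that of ID1 turns to -0.17 without WT 1, and the most symbols are filled without WT 1.

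Genes of the cortical hem and choroid plexus were also low in WT 1. WT 1 was the lowest library for 13 of 17 genes of that list, and KO 2 the highest for 13. The shares of all tested genes were not computed for these counts either. TTR, a transport protein made by choroid plexus, had 1320, 4116 and 3438 CPM in KO 1 to 3, against 252, 2108 and 1092 CPM in WT 1 to 3. The summed level of the list ran from 1806 to 4762 CPM in KO and from 443 to 2537 CPM in WT, which overlapped, and no gene of the list was at 0 in all libraries. By edgeR 0 of its 16 tested genes were called, 2 had an unadjusted p under 0.05 and DESeq2 called 0; the median log2 fold change was 0.59, against -0.00 over all tested genes. The part of these cells in the levels of the BMP, MSX and ID genes was not tested.

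Markers of other cells were also read. Of 6 tested retina and pigment cell markers edgeR called 3, 2 higher and 1 lower in KO. DESeq2 called 4, and 4 had an unadjusted p under 0.05. Their folds were above 0 for 5 and below for 1, with a median log2 fold change of 0.93. Pigment cell genes that were called were at low levels. TYRP1, an enzyme gene of pigment synthesis, was higher at 1.77 ± 0.124 CPM in KO and 0.124 ± 0.160 CPM in WT (SD, n = 3 each; edgeR adjusted p = 0.00993). PMEL, a gene for a structural protein of pigment granules, was lower at 1.13 ± 0.545 CPM in KO and 3.93 ± 1.30 CPM in WT (edgeR adjusted p = 0.0254). The summed level of the retina and pigment cell list was 19.05 to 28.3 CPM in KO and 8.49 to 20.2 CPM in WT. The neural crest list, carried by TFAP2A and PAX3, which are also among the other BMP targets, summed to 50.6 to 127 CPM in KO and 79.0 to 205 CPM in WT. Of its 3 tested genes 0 were called by edgeR, 1 had an unadjusted p under 0.05 and 1 was called by DESeq2. Their folds were above 0 for 1 and below for 2, TFAP2A and PAX3. The unadjusted p under 0.05 was that of the gene with a fold above 0, opposite in direction to TFAP2A and PAX3. SOX10, TWIST1 and SNAI2 of that list were below 1 CPM in every human library. Surface ectoderm genes summed to 25.0 to 33.6 CPM in KO and 17.5 to 31.6 CPM in WT, and mesoderm and endoderm genes to 13.5 to 30.7 CPM in KO and 10.6 to 19.1 CPM in WT, with TBXT and SOX17 at 0 in all 6 human libraries. The mesoderm and endoderm sum rested on EOMES, known also from intermediate progenitors of the cortex, at 29.3, 27.5 and 12.7 CPM in KO and 18.2, 9.81 and 17.9 CPM in WT. Of 8 forebrain markers 1 was called, with 5 folds above 0 and 3 below: SIX3, which encodes a homeodomain factor of the rostral forebrain and the eye, was higher at 31.2 ± 6.12 CPM in KO and 7.66 ± 1.43 CPM in WT (edgeR adjusted p = 0.000309). Of 5 neuron markers 1 was called, with 3 folds above 0, 2 below and a median of 0.08: the neuronal tubulin gene TUBB3 was lower at 18.3 ± 1.48 CPM in KO and 26.4 ± 1.45 CPM in WT (edgeR adjusted p = 0.0316). The list of 5 neural progenitor markers summed to 2851 to 3680 CPM in KO and 3697 to 4226 CPM in WT, without overlap. Of these 5 genes edgeR called 0 and DESeq2 0, and 1 had an unadjusted p under 0.05. Their folds were above 0 for 2 and below for 3. The sum rested mostly on VIM, at 2389 ± 261 CPM in KO and 2938 ± 192 CPM in WT (edgeR adjusted p = 0.121). The part of any of these markers in the BMP results was not tested.

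Of 61 other genes of the BMP pathway, 47 were tested in human and 3 were called, 1 higher and 2 lower in KO. That is read against 5.5% of tested genes. Their median log2 fold change was 0.03, beside 1.01 for the 10 ligand and target genes. An unadjusted p under 0.05 was reached by 9 of the 47, beside 3872 of all 16956 tested genes. DESeq2 called 5 of the 47, of which 3 were higher and 2 lower.

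The genes called were modulators of the signal. CHRDL1, a secreted protein of the chordin family that binds BMPs, was higher, with 71.1, 64.0 and 64.1 CPM in KO 1 to 3, against 37.6, 24.6 and 32.4 CPM in WT 1 to 3 (log2 fold change 1.08 ± 0.14, edgeR adjusted p = 0.00377). CHRD, which encodes chordin, the secreted BMP antagonist, was lower, with 5.66, 4.19 and 5.57 CPM in KO, against 9.79, 14.9 and 10.2 CPM in WT (log2 fold change -1.17 ± 0.22, edgeR adjusted p = 0.0158). The groups did not overlap for either gene. SMURF1, a ubiquitin ligase that targets SMAD1 and SMAD5, was lower, at 51.1 ± 2.38 CPM in KO and 68.2 ± 5.27 CPM in WT (log2 fold change -0.42 ± 0.09, edgeR adjusted p = 0.0304). CHRDL1 and CHRD thus moved in opposite directions. Of 13 tested genes in the list of secreted antagonists, edgeR called 1 higher and 1 lower. In that list 4 had an unadjusted p under 0.05 and DESeq2 called 3, with 9 folds above 0 and 4 below. Of 8 tested intracellular inhibitors edgeR called 0 higher and 1 lower, 2 had an unadjusted p under 0.05 and DESeq2 called 1.

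None of 8 tested receptors and co-receptors was called by edgeR (1 at an unadjusted p under 0.05, 0 by DESeq2); the co-receptor genes RGMB and RGMA had the highest CPM over the 6 libraries together, RGMA with 126 ± 7.82 CPM in KO and 145 ± 6.10 CPM in WT. None of 4 SMADs was called (0 at an unadjusted p under 0.05, 0 by DESeq2), and SMAD4, the shared partner, averaged 103 ± 2.77 CPM in KO and 106 ± 9.59 CPM in WT (log2 fold change -0.04 ± 0.09). The 5 other tested ligands were not called (1 at an unadjusted p under 0.05, 1 by DESeq2), with GDF11 at 151 ± 29.8 CPM in KO and 111 ± 28.0 CPM in WT. Among 9 other targets 0 were called (1 at an unadjusted p under 0.05, 0 by DESeq2), and their median log2 fold change of -0.50 was of opposite sign to that of the MSX and ID genes. The dorsal neural gene ZIC1 had 73.3, 65.6 and 171 CPM in KO 1 to 3, against 70.5, 242 and 224 CPM in WT 1 to 3, so WT 1 again stood apart from WT 2 and WT 3. LEF1, a Wnt effector gene, averaged 150 ± 44.5 CPM in KO and 178 ± 83.3 CPM in WT, and was not called.

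**Figure D4:**
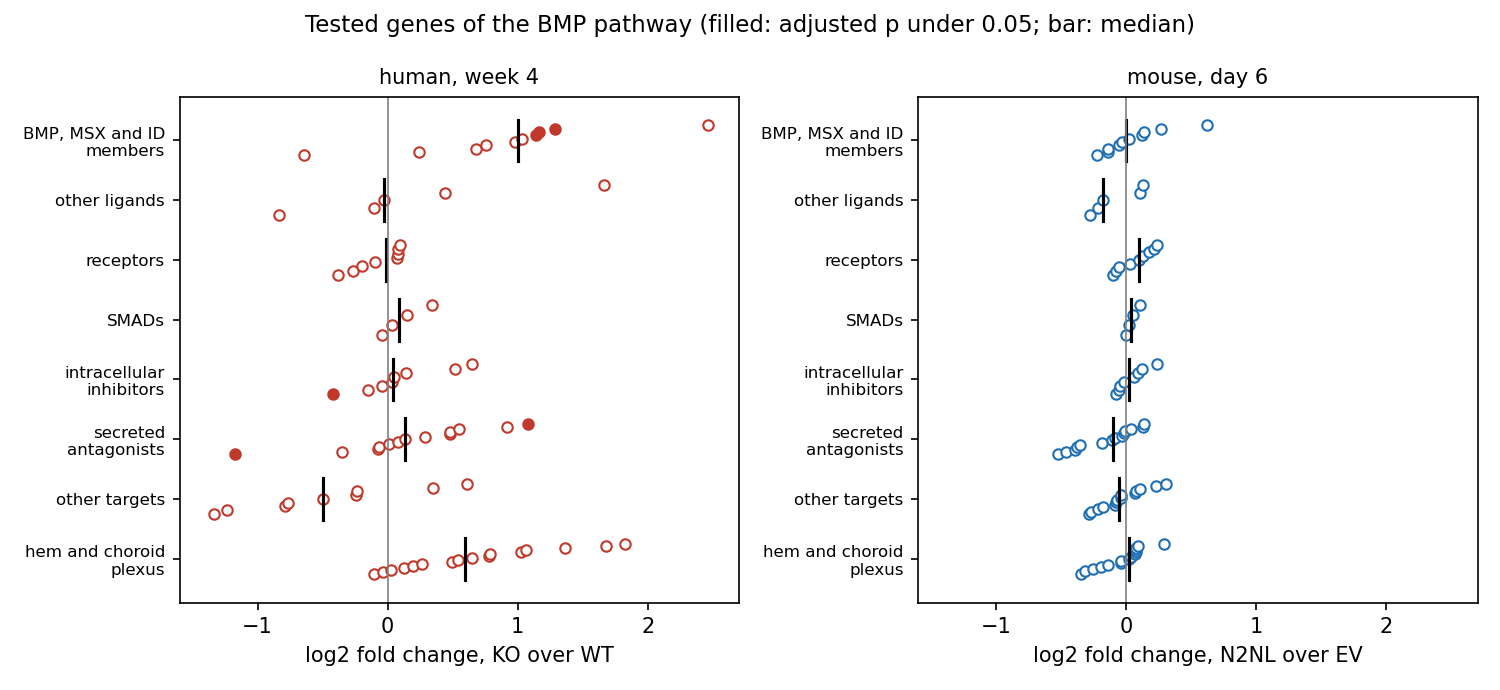
Log2 fold changes of tested genes by role in the BMP pathway and of cortical hem and choroid plexus genes, KO over WT in human and N2NL over EV in mouse; each circle is a gene, bars are medians of the group and filled circles have an edgeR adjusted p under 0.05. The BMP, MSX and ID genes have a human median of 1.01, the other targets have a median of -0.50, and no mouse circle is filled.

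The human genes with the profile nearest to that of BMP7 over the 6 libraries were RP11-23J9.5, GPR143, a pigment cell gene, and ADAMTS12, a secreted protease gene. Their root mean square differences in log2 CPM from BMP7, each gene centred on its own mean, were 0.115, 0.129 and 0.148, and the median over all tested genes was 0.664. By nearness to BMP7 among all tested genes, MSX1 ranked 5, at 0.156, ID3, MSX2 and BMP2 ranked 163, 179 and 234, and the other members ranked from 1423 (ID4) to 16254 (BMP5). For MSX1 the nearest were NPY1R, a neuropeptide Y receptor gene, at 0.060, GJA1, a connexin gene of gap junctions, at 0.085, and SNTB1, a syntrophin gene, at 0.126, with a median of 0.712 over all genes. BMP7, MSX2 and ID3 ranked 6, 22 and 27 by nearness to MSX1, at 0.156, 0.210 and 0.215. BMP2 ranked 95, BMP6, ID1, ID4 and BMP4 ranked 1351, 1865, 2205 and 5908, and BMP5 ranked 15746. All these points share the same 6 libraries, so the likeness is a description.

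In mouse day 6 organoids, none of the 10 orthologs was called by edgeR, beside 0.012% of tested genes called. An unadjusted p under 0.05 was reached by 2 of the 10, Bmp7 and Id1, beside 1242 of all 16682 tested genes. DESeq2 called 0 of the 10, beside 0.162% of tested genes. The groups overlapped for all 10 genes, whereas 12.7% of tested genes had groups that did not overlap. The median log2 fold change of the 10 was -0.00, as over all tested genes (-0.01).

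**Figure D5:**
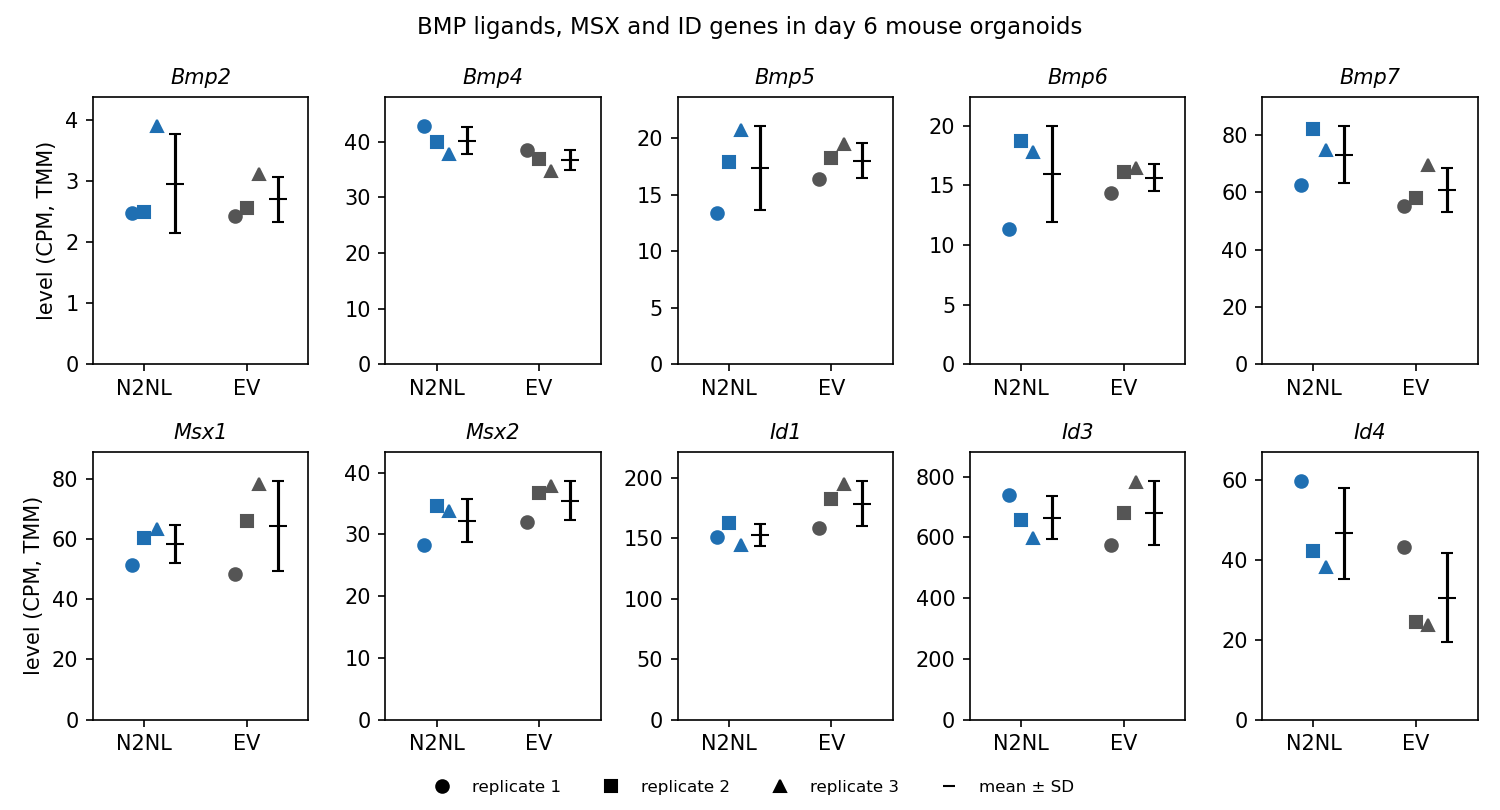
Levels in CPM of the 10 orthologs in mouse day 6 organoids, with 1 panel per gene and a linear axis from 0; symbols are the 3 N2NL and 3 EV libraries and bars are mean ± SD. The groups overlap in every panel, and Id4, with means of 46.6 CPM in N2NL and 30.4 CPM in EV, has the log2 fold change farthest from 0.

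Bmp7 was the most abundant of the 5 Bmp members by CPM in mouse as well. It had 62.6, 82.1 and 74.9 CPM in N2NL 1 to 3, against 55.1, 57.9 and 69.5 CPM in EV 1 to 3, a log2 fold change of 0.27 ± 0.11 (unadjusted p = 0.0329, edgeR adjusted p = 0.642). Only EV 3 reached into the range of the N2NL libraries. Bmp4 had 42.7, 40.0 and 37.8 CPM in N2NL, against 38.5, 36.9 and 34.8 CPM in EV (log2 fold change 0.13 ± 0.09, edgeR adjusted p = 0.792). Bmp2, Bmp5 and Bmp6 lay between 2.44 and 20.8 CPM in all 6 mouse libraries, with log2 fold changes of 0.12 ± 0.24, -0.06 ± 0.15 and 0.02 ± 0.16 and edgeR adjusted p-values of 0.950 or more.

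Among the targets, Id1 and Id4 stood farthest from 0. Id1 had 151, 163 and 145 CPM in N2NL 1 to 3, against 158, 182 and 195 CPM in EV 1 to 3, so N2NL 2 alone stood above the lowest EV library (log2 fold change -0.22 ± 0.08, unadjusted p = 0.0170, edgeR adjusted p = 0.585). Id4 had 59.6, 42.1 and 38.1 CPM in N2NL 1 to 3, against 43.3, 24.4 and 23.6 CPM in EV 1 to 3. The replicate 1 library was the highest in each group, and EV 1 stood above N2NL 2 and N2NL 3. The log2 fold change of Id4 was 0.62 ± 0.31 and was not called (edgeR adjusted p = 0.740), while the authors' deposited table called it, with an adjusted p of 5.15E-06, as the only one of the 9 with an adjusted p there (Bmp2 had none), beside 1.16% of its genes.

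Id3 was the most abundant of the 10 in mouse by CPM, with 739, 659 and 599 CPM in N2NL, against 574, 681 and 784 CPM in EV, and a log2 fold change of -0.03 ± 0.11 (edgeR adjusted p = 0.980). Msx1 had 51.5, 60.5 and 63.6 CPM in N2NL, against 48.5, 66.2 and 78.3 CPM in EV (log2 fold change -0.14 ± 0.17, edgeR adjusted p = 0.906). Msx2 had 28.3, 34.6 and 33.8 CPM in N2NL, against 31.9, 36.7 and 37.7 CPM in EV (log2 fold change -0.14 ± 0.10, edgeR adjusted p = 0.824). The ranges of N2NL and EV overlapped for both MSX genes. Mouse levels per length were not computed, so levels of different mouse genes are not ranked beyond the CPM given.

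The mouse pathway genes gave no call. By edgeR 0 of 54 tested genes passed, 6 had an unadjusted p under 0.05 and DESeq2 called 0. Over all 16682 tested genes 1242 had an unadjusted p under 0.05. The median log2 fold change of the pathway genes was -0.03. The co-receptor gene Rgma averaged 148 ± 14.2 CPM in N2NL and 126 ± 11.7 CPM in EV, the type I receptor gene Bmpr1a 185 ± 20.2 CPM in N2NL and 195 ± 14.4 CPM in EV, and Smad4 126 ± 6.85 CPM in N2NL and 124 ± 5.83 CPM in EV. Id2, the ID gene outside the 10, averaged 271 ± 36.2 CPM in N2NL and 315 ± 28.8 CPM in EV (unadjusted p = 0.0432, edgeR adjusted p = 0.663). The hem and choroid list summed to 1023 to 1344 CPM in N2NL and 1098 to 1319 CPM in EV, with 0 of 15 tested genes called by edgeR, 0 at an unadjusted p under 0.05 and 0 by DESeq2.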

How the data were processed

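The authors deposited raw read counts per Ensembl gene for each species, and tables of their own comparison. Per the file headers, an adjusted p-value was taken from both tables and a log2 fold change from the human table alone. The authors' normalized values per library, treated as a score, were used for mouse NOTCH2NL alone. The submitters' processing notes list, with no role given, DESeq2 2.11.39, HTSeq 0.6.1p1, Trimmomatic 0.36, Bowtie2 2.3.3.1 and STAR 2.4.0, and the builds GRCh38 and GRCm38. The 6 normalized human columns were not used here. In the deposited mouse table, lines of the counter that name no gene were not analysed; reads aligned to several places were 26.6% to 33.7% of the table's reads.

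Each species was fitted alone with edgeR 4.0.16 in R 4.3.3 (filterByExpr, TMM factors, robust quasi-likelihood F test with the group as the only term, Benjamini-Hochberg adjustment over all tested genes). All 10 genes passed the filter in each species. The ± of a fold is its size divided by the square root of F. DESeq2 1.42.0, other scalings and filters, a replicate block and leaving out each library were alternatives. Replicate libraries differed beyond sampling noise. Levels per kilobase used the exon union of GENCODE 29; promoter windows were RefSeq's, GRCh38.p14. A count of 0 allows up to 0.199 CPM in a human library (3 counts); such a limit covers counting error alone.

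The members and lists were chosen with earlier results of these data known. Genes named outside the 10 were those called in a list, the 2 most abundant of a list, or the 3 nearest in profile to BMP7 or MSX1; 1 such gene is not reported here.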

Additional observations from a re-analysis of the deposited data

How the results depend on the processing

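Of the human folds recomputed under the alternatives, 94 kept their direction and side of the threshold, 11 passed it newly, 14 no longer passed and 1 reversed; in mouse 110 kept both, 1 passed newly and 9 reversed. Every reversal came with 1 library left out, in folds that were never called, and the cause was not tested. Over those fits ID1 ran from -0.17 to 0.67 (negative without WT 1), Bmp2 from -0.12 to 0.25, Bmp5 from -0.21 to 0.10, Bmp6 from -0.11 to 0.22, Msx1 from -0.31 to 0.033 and Id3 from -0.14 to 0.093. With no filter on low counts, edgeR called 2155 human genes (6.55% of those tested), 6 members and 8 pathway genes (6 higher, 2 lower) in human, and 117 mouse genes; DESeq2 called 1409, 6, 5 and 27. With 1 library left out, calls ran from 224 to 1440 human genes, 0 to 5 human members, 1 to 5 human pathway genes and 0 to 17 mouse genes; each such fit has fewer samples, and a group of 2 gives little hold on its own spread. Levels of all 10 genes in each group moved by less than 1 SD without TMM factors.

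The replicate numbers are not stated to pair libraries, and deviations of same-numbered libraries correlated at 0.22, -0.11 and 0.13 in human and at 0.14, 0.02 and -0.00 in mouse. With a replicate block, edgeR called 899 human genes and 5 members (BMP4, BMP6, BMP7, MSX1 and ID4; BMP4 at 2.67), beside 5.3% of tested genes, 3 human pathway genes (2 higher, 1 lower), 21 mouse genes and 1 mouse member, Id4 at 0.64 (adjusted p = 0.0233), beside 0.126% of tested genes. Depth limits BMP4 and BMP5 most, at 2 to 84 and 2 to 23 counts per human library.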
